A study of Mus musculus with 34 samples.

Results

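The snoRNA host genes Gas5, Snhg1, Snhg3, Snhg5, Snhg6, Snhg8, Snhg12 and Zfas1 are 8 noncoding mouse genes whose introns carry small nucleolar RNAs (snoRNAs). They were chosen by name and matched to the gene table through the GENCODE M21 annotation, and all 8 were found among its 51368 genes. All 8 passed the filter on low counts and were tested in every comparison of liver libraries. The study varied how ribosomal RNA (rRNA) was handled, how fast the thermal cycler changed temperature (its ramp rate) and how long the RNA fragments were.

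The tissue came from a wild-type C57BL/6J mouse aged 12 weeks, given as male in one label field and female in another. Liver RNA was extracted with TRIzol and an RNeasy column and split over 33 libraries, and 1 further library was made from heart. Of the liver libraries, 9 were polyA-selected with the TruSeq Stranded mRNA kit in batch 1. A further 9 were depleted of rRNA by probe pull-down with the TruSeq Stranded Total RNA kit in batch 2. The remaining selected set was 9 libraries of batch 2 in which rRNA was digested with the Ribo-Zero Plus kit, with its adapters exchanged. Each set of 9 held every combination of slow, medium and fast ramp with short, medium and long fragments, made from 200 ng of RNA. Without any selection, 3 liver libraries were made in batch 1, 3 in batch 2 and the heart library in batch 1, each from 20 ng with medium fragments at the slow ramp. All libraries carried molecular identifiers and had 13 PCR cycles. Since all liver libraries came from 1 liver, p-values here measure the spread between library preparations and not between animals. PolyA libraries were all in batch 1 and the pull-down and digestion libraries all in batch 2, so those contrasts cannot be told apart from batch.

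snoRNA host genes are transcribed, spliced and polyadenylated like messenger RNAs, while the introns are trimmed into snoRNAs that guide the modification of ribosomal RNA. Box C/D snoRNAs guide ribose methylation and box H/ACA snoRNAs guide pseudouridylation. The spliced host transcripts mostly lack long open reading frames, and several, Gas5 and Snhg1 among them, are known targets of nonsense-mediated decay, which removes transcripts that stop translation early. Many host genes, like ribosomal protein genes, start with a pyrimidine tract that ties their use to cell growth, and Gas5 was named for its accumulation in growth-arrested cells.

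PolyA selection needs a tail, so the last 60 bases of 1 annotated transcript of each gene are shown, from GENCODE M21 on GRCm38, with the polyadenylation signals AATAAA and ATTAAA in capitals. Both signals were searched on the transcript strand, and in Snhg8 its pair of matches overlaps.
Gas5: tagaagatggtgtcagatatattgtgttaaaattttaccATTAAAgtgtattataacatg
Snhg1: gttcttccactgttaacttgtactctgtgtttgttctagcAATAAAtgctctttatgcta
Snhg3: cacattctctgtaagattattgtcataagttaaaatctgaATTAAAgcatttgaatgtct
Snhg5: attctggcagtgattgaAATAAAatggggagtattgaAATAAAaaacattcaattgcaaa
Snhg6: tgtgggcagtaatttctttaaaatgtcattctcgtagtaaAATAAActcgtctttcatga
Snhg8: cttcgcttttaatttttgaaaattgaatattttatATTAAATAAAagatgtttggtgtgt
Snhg12: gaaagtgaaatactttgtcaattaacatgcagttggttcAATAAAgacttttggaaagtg
Zfas1: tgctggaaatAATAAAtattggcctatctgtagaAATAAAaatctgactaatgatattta
The windows lie at chr1:161038478-161038537 (Gas5, plus), chr19:8726384-8726443 (Snhg1, plus), chr4:132351933-132351992 (Snhg3, minus), chr9:88521052-88521111 (Snhg5, minus), chr1:9941959-9942018 (Snhg6, minus), chr3:123507557-123507616 (Snhg8, minus), chr4:132310965-132311024 (Snhg12, plus) and chr2:167065803-167065862 (Zfas1, plus). All 8 windows held 1 of these signals or both. Among 9157 long noncoding genes of the annotation, chosen the same way, 44.4% had either signal, against 71.6% of 21765 protein coding genes and 1.61% of 1364 snoRNA genes. A match describes the letters and not a used site.

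Gas5 (ENSMUSG00000053332) lies at chr1:161034422-161038539 on the plus strand of GRCm38 and holds 10 annotated snoRNA genes, the most of the 8. Snhg1 (ENSMUSG00000108414, chr19:8723475-8726443, plus) holds 8, Snhg12 (ENSMUSG00000086290, chr4:132308623-132311024, plus) 5 and Zfas1 (ENSMUSG00000074578, chr2:167062934-167065862, plus) 3. Snhg3 (ENSMUSG00000085241, chr4:132348014-132353686, minus) and Snhg5 (ENSMUSG00000097195, chr9:88521050-88522929, minus) hold 2 each. Snhg6 (ENSMUSG00000098234, chr1:9941959-9944118, minus) and Snhg8 (ENSMUSG00000104960, chr3:123507552-123508404, minus) hold 1 each. These counts are of annotated genes: Snord80 in Gas5 and Snora16a in Snhg12 are each annotated as 2 overlapping genes, and 1 gene counted in Gas5 is named Mir5117. Snhg6 and Snhg12 are typed as lincRNA and the other 6 as processed transcript.

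Of these 32 snoRNA genes, 24 are shorter than 100 bases and 8 are longer. The snoRNAs below are those with the most counts, Snora73a and Snora73b of Snhg3, Snord22 of Snhg1 and Snora44 of Snhg12. They are followed by 4 short ones without any count, Snord47 of Gas5, Snord50b of Snhg5, Snord87 of Snhg6 and Snord12 of Zfas1. Capitals mark the C box TGATGA within the first 20 bases and the D box CTGA within the last 15, searched only in genes shorter than 100 bases, and an ACA within the last 8, searched only in the longer ones, all on the transcript strand.
Snora73a: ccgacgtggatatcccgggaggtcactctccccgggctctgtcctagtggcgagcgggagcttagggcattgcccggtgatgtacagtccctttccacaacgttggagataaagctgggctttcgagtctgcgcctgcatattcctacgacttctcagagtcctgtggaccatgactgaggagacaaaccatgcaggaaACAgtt
Snora73b: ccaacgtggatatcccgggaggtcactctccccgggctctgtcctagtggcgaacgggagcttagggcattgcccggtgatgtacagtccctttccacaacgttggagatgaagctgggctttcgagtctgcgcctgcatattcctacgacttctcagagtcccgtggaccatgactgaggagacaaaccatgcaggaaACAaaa
Snord22: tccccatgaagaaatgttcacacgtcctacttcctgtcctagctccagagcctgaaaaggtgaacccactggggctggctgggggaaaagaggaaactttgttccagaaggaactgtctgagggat
Snora44: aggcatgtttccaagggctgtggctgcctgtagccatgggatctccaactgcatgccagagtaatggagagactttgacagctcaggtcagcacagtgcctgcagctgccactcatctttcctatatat
Snord47: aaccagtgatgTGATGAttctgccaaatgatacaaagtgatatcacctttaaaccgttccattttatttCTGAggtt
Snord50b: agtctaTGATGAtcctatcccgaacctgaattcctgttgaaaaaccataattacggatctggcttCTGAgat
Snord87: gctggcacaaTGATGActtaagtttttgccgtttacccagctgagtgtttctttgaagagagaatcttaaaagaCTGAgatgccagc
Snord12: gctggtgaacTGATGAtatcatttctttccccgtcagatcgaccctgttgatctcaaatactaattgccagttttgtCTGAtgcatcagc
These genes lie at chr4:132352775-132352979 (Snora73a, minus), chr4:132352322-132352526 (Snora73b, minus), chr19:8725866-8725991 (Snord22, plus), chr4:132309941-132310069 (Snora44, plus), chr1:161038082-161038158 (Snord47, plus), chr9:88521797-88521868 (Snord50b, minus), chr1:9942463-9942549 (Snord87, minus) and chr2:167065276-167065365 (Snord12, plus) of GRCm38. Both boxes were found in 21 of the 24 short genes, against 51.7% of 329 short snoRNA genes in the table. An ACA stood near the end of 6 of the 8 long ones, against 62.8% of 1035. Snord22 and Snora44 have no ACA in that window and were not searched for C and D boxes. Snora73a and Snora73b differ at 7 of 205 positions when laid side by side without gaps, so their separate counts are uncertain.

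Annotated exons of the host genes and snoRNA genes overlap. Of the 32 snoRNAs, 29 lie in an exon of some host transcript, and 41 of the 77 host transcripts contain one, among them 16 of 25 of Gas5 and 0 of 5 of Snhg3. The locus of Snhg3 shares 5592 bases on the same strand with that of Rcc1, a protein coding gene. Zfas1 shares 189 bases on its strand with Gm27494, typed as misc_RNA. On the opposite strand, Gas5 meets Zbtb37, Snhg3 meets Gm17300, Snhg6 meets Mcmdc2 and Zfas1 meets Znfx1. How the authors' counting used strand is not given in the sources used here, so reads of overlapping genes may have been divided between them.

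Library totals ranged from 19873384 to 41396087 expected counts, apart from 1 pull-down library (long fragments, slow ramp) that held 1126377 and is called the low-depth library here. The 8 host genes together had 2532 to 4546 counts in polyA libraries, 964 to 1901 in digestion libraries and 208 to 267 in unselected liver libraries. In pull-down libraries they had 122 to 3483, the lowest being the low-depth library. Genes typed as rRNA, with Lars2 (where ribosomal reads collect), took 84.8% to 85.7% of counts in unselected liver libraries, at most 1.12% in polyA and digestion libraries and 14.2% to 24.5% in pull-down libraries. Levels are given as normalised CPM, which are CPM on library sizes scaled by edgeR's TMM method over all 34 libraries. The 8 hepatocyte markers summed to 54234 to 80013 normalised CPM in liver libraries and to 205 in heart, and the 8 cardiomyocyte markers to at most 1.02 in liver and 26876 in heart.

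Gas5 was the most abundant of the 8 per length of transcript in every group. With the median annotated transcript as the length, its range overlapped that of no other gene. Its level per kilobase of median annotated transcript was 74.9 ± 19.3 normalised CPM (SD, n = 9) in polyA libraries, 68.6 ± 18.1 (n = 9) in pull-down and 22.6 ± 2.72 (n = 9) in digestion. Snhg8, the host of Snora24, followed at 13.8 ± 2.83 per kilobase in polyA libraries. Its range there overlapped that of Zfas1 at 11.5 ± 1.56, which overlapped Snhg1 at 10.9 ± 2.97, which overlapped Snhg6 at 8.75 ± 1.47. Snhg12 at 5.34 ± 0.712, Snhg3 at 4.51 ± 1.52 and Snhg5 at 3.52 ± 0.537 came last, each overlapping the next, and the lowest Snhg6 library stood above the highest Snhg12 library. In unselected libraries of both batches Snhg1 had the next mean after Gas5, at 7.20 ± 2.33 (n = 3) and 8.79 ± 1.46 (n = 3) per kilobase, in a range that Snhg6 and Snhg8 overlapped in both batches and Zfas1 in batch 1 only. The span from Gas5 to Snhg5 in polyA libraries was 21.2-fold, and 7.39-fold between the highest and lowest gene when the union of all annotated exons was used as the length. That length also changed the order. In polyA libraries the means per kilobase were 12.5 for Gas5, 8.51 for Snhg8, 4.27 for Snhg6, 2.87 for Zfas1 and 2.22 for Snhg1. Snhg8 then followed Gas5 in unselected libraries too, at 3.82 in batch 1 and 4.78 in batch 2. Ranges between genes were compared on the median transcript length only.

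**Figure D1:**
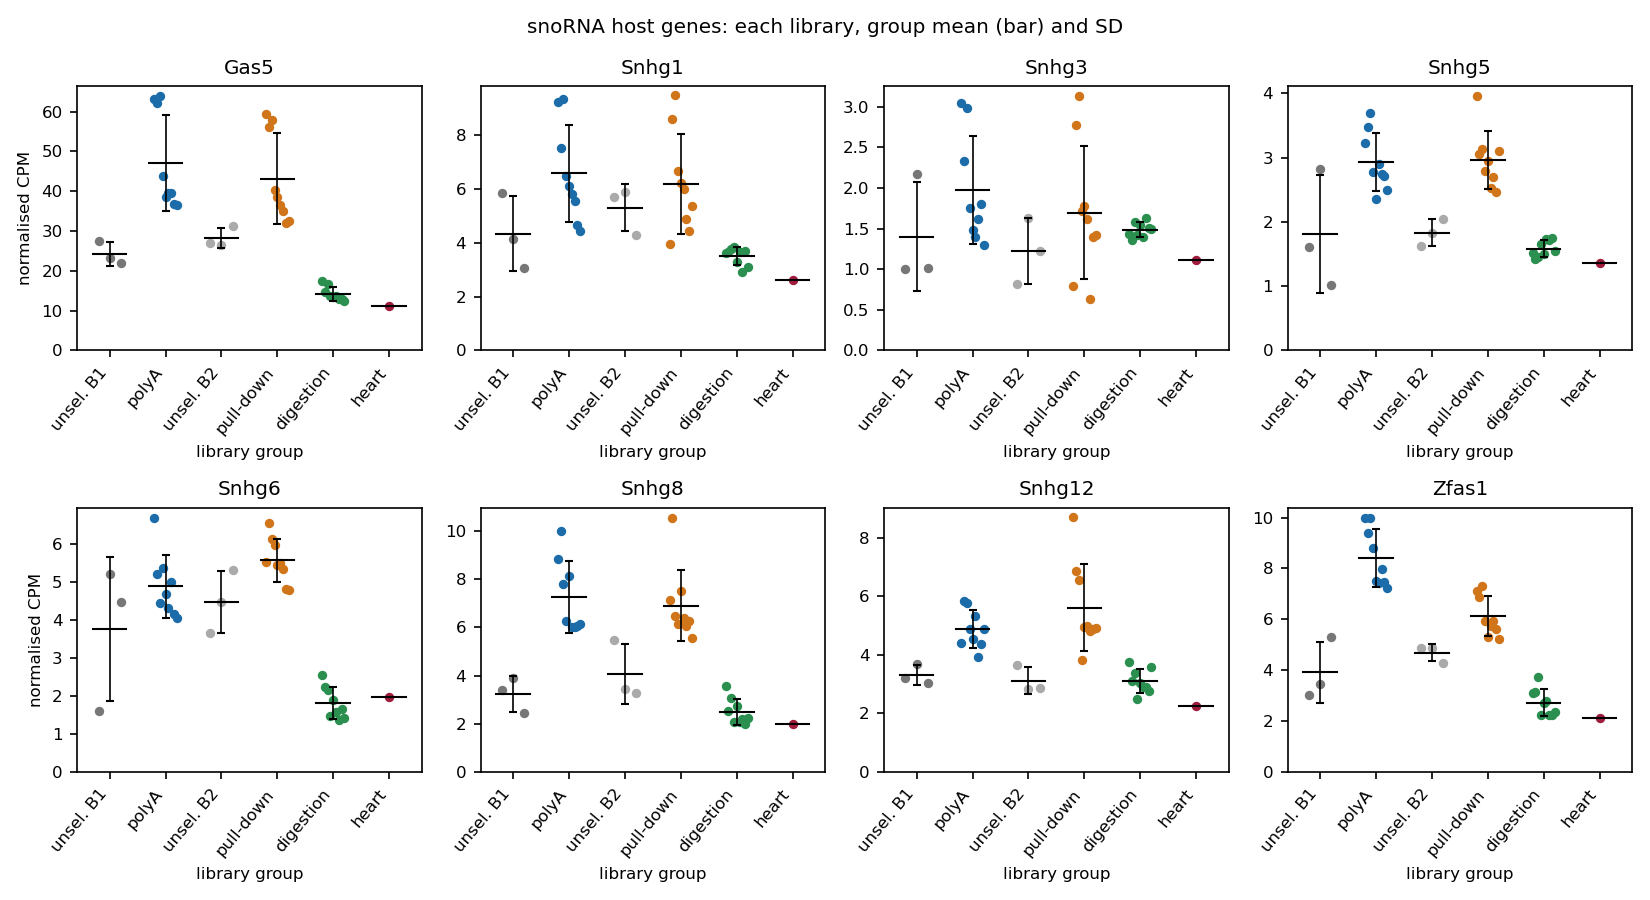
Normalised CPM (linear axes from 0) of the 8 host genes in each of the 34 libraries by group, with the group mean as a bar and the SD. For 7 of the 8 genes the digestion libraries lie wholly below the pull-down libraries, and Snhg3 is the gene whose sets overlap.

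PolyA libraries held a larger share of host transcripts than unselected RNA. Since unselected libraries were made from less RNA, selection and input amount cannot be told apart in these comparisons. Unselected libraries all had medium fragments, while each selected set mixed short, medium and long ones. The fit took a length effect shared by all methods, although that effect differed between methods for some host genes. Ranges took no account of length. With medium fragments only, Gas5 had a mean of 40.7 normalised CPM in polyA libraries, against 24.3 in unselected ones of batch 1. Gas5, Snhg1, Snhg5, Snhg8 and Zfas1 were higher in polyA than in batch 1 unselected libraries, 5 of 8, where 50.4% of 15422 genes passed and 25.6% were higher (24.8% were lower). None was lower, and the estimates of all 8 were above 0 by TMM, by library totals and by totals without rRNA. Library totals count rRNA, and by them all 8 passed, as did 92.5% of all genes in that direction, while the median of all genes moved from 0.04 to 2.67 (log2). The median log2 difference over the 8 was 0.62 against 0.04 over all genes tested.

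Gas5 had 27.6, 23.2 and 22.0 normalised CPM in the 3 unselected libraries and 36.6, 39.7 and 63.8 as the lowest, median and highest polyA library. The groups did not overlap, and the fitted difference was 0.86 ± 0.10 (log2, SE; edgeR quasi-likelihood test, adjusted p = 3.83e-08). Zfas1, whose start overlaps that of Znfx1 on the other strand, had 3.02, 3.48 and 5.29 unselected and 7.23, 7.96 and 10.0 in polyA libraries. Every polyA library of Zfas1 was above every unselected one, with a log2 difference of 1.04 ± 0.14 (adjusted p = 3.25e-07). Snhg8 had 3.42, 3.91 and 2.44 unselected and 6.02, 6.29 and 10.0 in polyA libraries, again without overlap, with 1.06 ± 0.21 (adjusted p = 9.99e-05).

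Snhg5, the host of the U50 snoRNAs, and Snhg1 passed more narrowly. Snhg5 rose by 0.66 ± 0.25 (adjusted p = 0.0339) and Snhg1 by 0.58 ± 0.23 (adjusted p = 0.0355), and the ranges of both groups overlapped for both genes. DESeq2 did not call Snhg5 (adjusted p = 0.0873), nor did a fit of these libraries alone (0.104). Snhg6 (0.47 ± 0.21, adjusted p = 0.0573), Snhg12 (0.37 ± 0.19, adjusted p = 0.114, ranges apart) and Snhg3 (0.30 ± 0.46, adjusted p = 0.626) did not pass. The ranges were apart for 4 of 8 genes, all with polyA above, where 43.8% of all genes had ranges apart and 22.2% with polyA above. Leaving out unselected replicate 1 or 3 ended the Snhg5 call (adjusted p = 0.139 and 0.349) and replicate 2 or 3 the Snhg1 call (0.107 and 0.248), while without replicate 2 or 3 Snhg6 passed (0.0110 and 0.0443). With totals that left out rRNA, Snhg1 and Snhg5 lost their calls (adjusted p = 0.102 and 0.109).

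Pull-down of rRNA gave estimates above the unselected libraries of batch 2 for all 8 host genes, 0.31 to 0.69 on the log2 scale, of which 3 passed. These were Gas5, Snhg8 and Snhg12, where 32.8% of 15422 genes passed, 17.5% higher and 15.3% lower. The median over the 8 was 0.47, against 0.06 over all genes tested.

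Gas5 had 27.1, 26.5 and 31.3 normalised CPM in the unselected libraries of batch 2 and 32.1, 38.5 and 59.4 as the lowest, median and highest pull-down library. All pull-down libraries were above the unselected ones, by 0.51 ± 0.10 (adjusted p = 0.000197). Snhg8 was 0.69 ± 0.20 higher (adjusted p = 0.00831) and Snhg12 0.56 ± 0.20 (adjusted p = 0.0281). Without unselected replicate 2, and likewise without replicate 3, Snhg8 (adjusted p = 0.0688 and 0.0811) and Snhg12 (0.127 and 0.123) no longer passed, and Gas5 alone remained. Gas5 alone also passed with totals that left out rRNA and in a fit of these groups alone, whereas by library totals all 8 were higher, as were 94.9% of genes. Zfas1 (0.33 ± 0.14, adjusted p = 0.109) and Snhg5 (0.62 ± 0.25, adjusted p = 0.0697) did not pass, although their pull-down libraries, like those of Gas5, Snhg8 and Snhg12, all lay above the unselected ones. These were 5 of 8 genes, against 10.9% of all genes tested.

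After digestion of rRNA the estimates were below the unselected libraries of batch 2 for 7 of 8 host genes on the TMM scale and above them for all 8 by library totals. This comparison shares its unselected libraries with that of pull-down. Gas5, Snhg6, Snhg8 and Zfas1 were lower in digestion than in unselected libraries of batch 2 on the TMM scale, 4 of 8, where 14.7% of 15422 genes passed, 7.66% lower and 7.06% higher, but all 8 were higher when library totals were used, as were 97.9% of genes. That scaling moved the median of all genes tested from 0.04 to 2.85 (log2). Totals without rRNA gave the same 4 calls. The median of the 8 was -0.70 on the TMM scale.

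Snhg6, which carries Snord87, had 3.66, 4.48 and 5.31 normalised CPM unselected and 1.36, 1.66 and 2.54 as the lowest, median and highest digestion library. The groups were apart, with a log2 difference of -1.23 ± 0.22 (adjusted p = 0.000132). Gas5 had 12.5, 13.7 and 17.4 in digestion libraries, all below its lowest unselected library, a difference of -1.06 ± 0.10 (adjusted p = 4.92e-09). Zfas1 differed by -0.84 ± 0.15 (adjusted p = 0.000814) and Snhg8 by -0.80 ± 0.22 (adjusted p = 0.0126), the latter with overlapping ranges. Snhg1 at -0.59 ± 0.23 (adjusted p = 0.0838), Snhg5 at -0.25 ± 0.26, Snhg12 at -0.20 ± 0.21 and Snhg3 at 0.10 ± 0.49 did not pass. Without unselected replicate 1 the Snhg8 call was lost (adjusted p = 0.249), and DESeq2 (adjusted p = 0.0233) or a fit of these 2 groups alone (0.0317) added Snhg1, whose digestion libraries all lay below the unselected ones. The ranges were apart in that direction for 4 of 8 genes, against 11.8% of all genes.

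**Figure D2:**
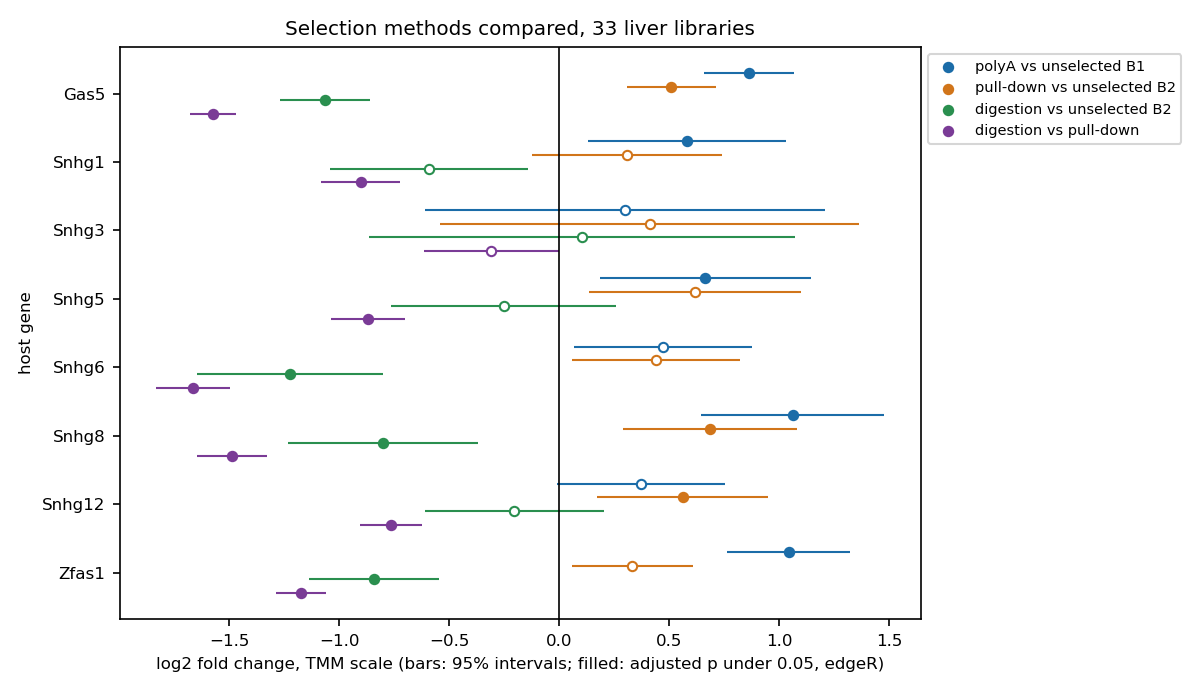
Log2 differences of the 8 host genes on the TMM scale (horizontal axis), with bars for 95% intervals and filled points for adjusted p under 0.05, in 4 comparisons of liver libraries. Digestion points lie left of the pull-down and polyA points for each gene. By library totals the 7 negative digestion against unselected values turn positive.

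The direct contrast of pull-down and digestion, both in batch 2 and both from 200 ng, had 9 libraries a side. Of the host genes, 7 of 8 were lower after digestion than after pull-down, where 70.7% of 15422 genes passed and 36% were lower. The 7 kept that direction and their calls by library totals and by totals without rRNA, and without the low-depth library. By library totals 7.96% of genes were lower and 73.9% higher. The digestion range lay wholly below the pull-down range for the same 7 on the TMM scale, and for 13.3% of all genes. Among libraries matched for ramp and length, each of the 7 was lower in 9 of 9 pairs.

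Snhg6 had 1.36, 1.66 and 2.54 normalised CPM (lowest, median, highest) after digestion and 4.80, 5.52 and 6.56 after pull-down, and fell by 1.67 ± 0.09 on the log2 scale (adjusted p = 3.42e-17). Gas5 fell by 1.57 ± 0.05 (adjusted p = 1.28e-21) and Snhg8 by 1.49 ± 0.08 (adjusted p = 1.60e-16). Zfas1 fell by 1.17 ± 0.06 (adjusted p = 1.53e-17).

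Snhg1 (-0.90 ± 0.09), Snhg5 (-0.87 ± 0.09) and Snhg12 (-0.77 ± 0.07) were lower by less, with adjusted p of at most 3.42e-10. The largest digestion value of Snhg12 was 3.77 and the smallest pull-down value 3.84, so its groups were just apart. Snhg3 had 1.36, 1.49 and 1.62 after digestion and 0.630, 1.62 and 3.13 after pull-down. Its digestion libraries lay inside the pull-down range, and its difference of -0.31 ± 0.16 did not pass (adjusted p = 0.0808). It was lower in 5 of 9 matched pairs, and 0.26 by library totals (adjusted p = 0.105).

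Relative to digestion, polyA libraries were higher for all 8 host genes, where 80.6% of 15422 genes passed and 38.4% were higher. Gas5 was 1.71 ± 0.05 higher (adjusted p = 4.30e-23), Zfas1 1.63 ± 0.05, Snhg8 1.53 ± 0.08 and Snhg6 1.43 ± 0.08. Snhg1 was 0.89 ± 0.09 higher, Snhg5 0.88 ± 0.08 and Snhg12 0.66 ± 0.07. Snhg3 was the smallest at 0.37 ± 0.15 (adjusted p = 0.0211), and did not pass by library totals (0.400), totals without rRNA (0.431) or DESeq2 (0.0555). The ranges were apart for the other 7, against 24% of all genes with polyA above.

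PolyA and pull-down libraries differed little for most host genes. On the TMM scale 3 of 8 passed, where 72.6% of 15422 genes did, 36.4% higher and 36.2% lower. Zfas1 was 0.46 ± 0.05 higher in polyA (adjusted p = 4.70e-09) and higher in 9 of 9 matched pairs. Gas5 was 0.13 ± 0.05 higher (adjusted p = 0.0202), also in 9 of 9 pairs, and Snhg6 was -0.23 ± 0.08, thus lower in polyA (adjusted p = 0.00685), in 8 of 9 pairs, though 0.08 by library totals (adjusted p = 0.346). The 95% intervals of the other 5 lay between -0.24 and 0.36, which bounds the differences of Snhg1, Snhg3, Snhg5, Snhg8 and Snhg12 on the TMM scale only. By library totals, which moved the median of all genes to 0.32, 7 of 8 were higher, where 58.6% of all genes were higher and 21.6% lower, with Snhg1 (0.30) and Snhg12 (0.21) turning from slightly negative values. The ranges of the 2 sets overlapped for all 8 genes, while 21.2% of all genes had ranges apart.

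Other genes of the table differed by transcript length in the same contrasts. The median annotated transcript of 7 host genes is 500 to 999 bases long and that of Snhg3 is 437. Of 4994 genes tested with 500 to 999 bases, 47.2% were lower and 27.3% higher after digestion than after pull-down, while of 5223 genes with 2000 bases or more 22.4% were lower and 45.5% higher. Between polyA and digestion, 55.8% of the 500 to 999 base genes and 17.9% of those of 2000 bases or more were higher in polyA. The median of the 8 host genes was -1.04 for digestion against pull-down, and that of the 500 to 999 base genes -0.15. The part of transcript length in the host gene values was not tested. Cell type markers moved too. The 3 blood markers summed to 13.3 to 15.0 normalised CPM after digestion and 209 to 304 after pull-down, with all 3 lower, and the 5 Kupffer cell markers to 99.4 to 112 and 187 to 259, with all 5 lower. Also lower after digestion on the TMM scale were 7 of 8 hepatocyte markers (median -0.42, log2), 5 of 5 endothelial cell markers (-0.59) and 4 of 5 fibroblast markers (-0.47), the last with 1 higher. By library totals 1 hepatocyte marker was lower and 4 higher, 2 endothelial cell markers lower and 1 higher, 2 fibroblast markers lower and 1 higher, and 2 blood markers lower and 1 higher, while all 5 Kupffer cell markers were lower. On the TMM scale, in polyA relative to digestion libraries 6 of 8 hepatocyte markers were higher and 2 lower (median 0.66). Of 3 blood markers 2 were higher and 1 lower (6.05). In that contrast 5 of 5 endothelial cell (-1.14) and 4 of 5 fibroblast markers (-0.17) were lower. Of 5 Kupffer cell markers 3 were lower and 1 higher (-0.30). Between polyA and unselected RNA of batch 1 the Kupffer cell markers summed to 86.9 to 90.6 and 134 to 140, and the 5 endothelial cell markers to 62.1 to 64.9 and 165 to 185. On the TMM scale all 5 Kupffer cell, all 5 endothelial cell and all 5 fibroblast markers (median -0.55, log2) were lower in polyA. Of 8 hepatocyte markers 6 were higher and 2 lower (0.48), and of 3 blood markers 1 was higher and 1 lower. By library totals 92.5% of all genes were higher in that comparison. On the TMM scale all 5 Kupffer cell and all 5 endothelial cell markers were higher after pull-down than in unselected RNA of batch 2 (medians 0.55 and 0.35, log2). In that contrast 5 of 8 hepatocyte markers were higher and 0 lower (0.35). Of 5 fibroblast markers 2 were higher and 1 lower (0.18), and of 3 blood markers 1 was higher and 0 lower (0.31). After digestion 2 of 3 blood markers (median -5.65), 4 of 5 Kupffer cell (-0.46) and 3 of 5 fibroblast markers (-0.36) were lower than in that unselected RNA. Of 8 hepatocyte markers 1 was higher and 1 lower (-0.19), and 1 of 5 endothelial cell markers was lower (-0.18). By library totals all 5 Kupffer cell markers were higher after digestion. None of these markers was at 0 in a group, and their part was not tested.

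Most snoRNAs inside the host genes had no counts. Of the 24 shorter than 100 bases, 23 are in the table and 0 had a count in any of the 34 libraries, nor did any of the 329 short snoRNA genes in the table. Of the 8 longer ones 7 had counts, against 19.6% of 1035 such genes. Spliced host transcripts and released snoRNAs are separate molecules, and snoRNAs are not polyadenylated.

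Snora73a, an H/ACA snoRNA of Snhg3 known from the processing of the small ribosomal subunit RNA, had 9.56 to 14.1 normalised CPM in unselected libraries of batch 2 and 59.4 to 184 after pull-down. The groups were apart, by 2.72 ± 0.32 on the log2 scale (edgeR, adjusted p = 4.78e-08). After digestion it had 2.83 to 4.21, below every unselected library, at -2.001 ± 0.376 (adjusted p = 0.000304) relative to them, but 0.83 ± 0.32 by library totals. In polyA libraries it had 0.0388 to 0.180, and its log2 difference from batch 1 unselected libraries was -7.67 ± 0.51. Its host Snhg3 passed in none of these 3 comparisons with unselected RNA on the TMM scale and was higher in all 3 by library totals.

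Snora73b, the second H/ACA snoRNA of Snhg3, was at -7.64 ± 0.45 in polyA, 0.80 ± 0.31 after pull-down and -1.63 ± 0.32 after digestion, each against unselected RNA of the same batch. The pull-down value of Snora73b passed on the TMM scale (adjusted p = 0.0470) and not by totals without rRNA (0.131). Snord22 of Snhg1 was at -7.35 ± 0.45 in polyA and -1.55 ± 0.35 after digestion, and its pull-down value of 0.34 ± 0.32 did not pass. By library totals the digestion values of Snora73b (1.20) and Snord22 (1.27) turned positive, and the polyA values stayed at -5.01 for Snora73a, -4.98 for Snora73b and -4.72 for Snord22. Snora44 of Snhg12 was listed at 0 in all 9 polyA libraries against 3 to 8 counts in each unselected library of batch 1, at least 171-fold lower on the TMM scale, and at least 27.2-fold by library totals, when 3 counts over the 9 libraries are taken as the limit. Between pull-down and digestion all 4 were lower after digestion on each scaling, with TMM differences of -4.72 ± 0.16 for Snora73a, -2.43 ± 0.15 for Snora73b, -1.89 ± 0.14 for Snord22 and -1.48 ± 0.18 for Snora44. The drop of Snora73a stood beside a difference of -0.31 ± 0.16 for its host Snhg3.

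**Figure D3:**
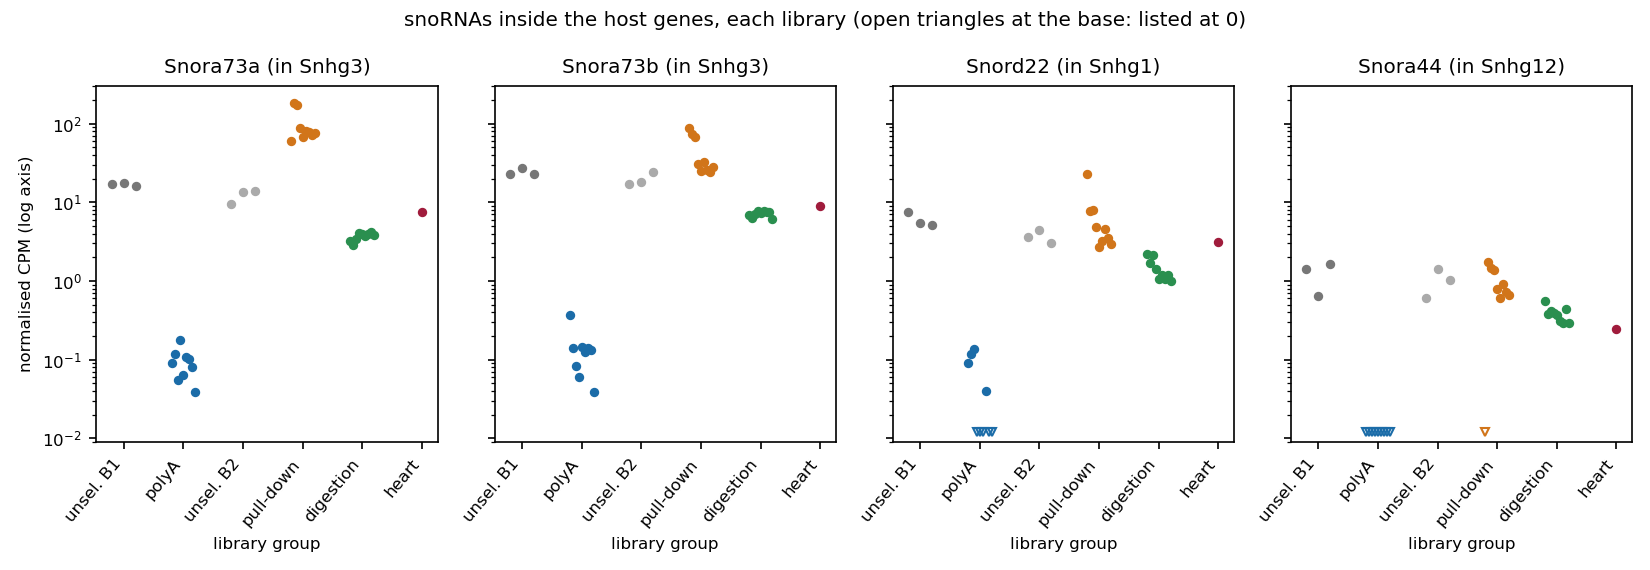
Normalised CPM (log axis) of the 4 most counted snoRNAs inside the host genes in each of the 34 libraries by group, with open triangles at the base for libraries listed at 0. PolyA libraries lie below all others for Snora73a, Snora73b and Snord22, and Snora44 is listed at 0 in all 9 of them and in the low-depth pull-down library. The pull-down libraries span 59.4 to 184 for Snora73a and 24.0 to 88.0 for Snora73b. The 59.4 and the 88.0 are both from the low-depth library, on 75 and 111 counts. For Snora73a the other long-fragment pull-down libraries had 184 and 171, and the medium and short ones 68.2 to 87.2.

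Most host genes were higher in long fragments. Over the 27 selected libraries, 7 of 8 were higher in long than in short fragments, where 44.7% of 15230 genes passed, 24.8% higher and 19.9% lower. Snhg3 was 0.66 ± 0.16 higher, Snhg1 0.65 ± 0.09, Gas5 0.65 ± 0.05, Snhg8 0.52 ± 0.08, Snhg6 0.43 ± 0.07, Zfas1 0.42 ± 0.05 and Snhg12 0.30 ± 0.08. Snhg5 at 0.17 ± 0.08 did not pass (adjusted p = 0.0712). The median of the 8 was 0.48 and that of all genes tested 0.02, and the 7 were called alike by library totals, totals without rRNA and DESeq2. In the same comparison 4 of 5 Kupffer cell markers (median 0.20, log2) and 2 of 3 blood markers (median 0.28) were higher and 0 lower on the TMM scale, while 0 of 8 hepatocyte markers were higher and 1 was lower. By library totals 2 of the 5 Kupffer cell markers passed. The part of these markers was not tested.

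Gas5 showed this within each method. Its polyA libraries had 36.6, 36.8 and 39.5 normalised CPM with short fragments, 39.7, 38.6 and 43.7 with medium and 63.8, 62.1 and 63.1 with long. Pull-down had 32.4, 32.1 and 35.0 with short, 36.5, 38.5 and 40.3 with medium and 58.0, 56.2 and 59.4 with long. The step lay between medium and long in both, and short and long did not overlap. Digestion libraries had 12.5, 12.9 and 13.1 with short and 16.6, 14.7 and 17.4 with long, also apart and closer together.

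Fitted within polyA libraries, all 8 host genes were higher with long fragments, where 55.2% of 14629 genes passed, 27.4% higher and 27.7% lower. Snhg3 (0.82 ± 0.15) and Snhg1 (0.81 ± 0.09) changed most, and Snhg12 least (0.27 ± 0.09, adjusted p = 0.0298). The long libraries lay above the short ones for 6 of 8 genes, against 30.3% of all genes. Leaving out 1 of the 6 short or long libraries in turn left 6 or 7 calls. Snhg12 was lost without any of 5 of them (adjusted p = 0.0553 to 0.199), Snhg5 without the medium ramp, long (0.0588) or fast, short library (0.0746), and Snhg6 without the slow, long (0.0721) or slow, short library (0.0552). DESeq2 called 5, without those 3.

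Within pull-down libraries 5 of 8 were higher (Gas5, Snhg1, Snhg3, Snhg6 and Zfas1), where 6.08% of 14426 genes passed, 4.42% higher and 1.66% lower, and the long libraries of 5 genes lay above the short ones, against 9.14% of all genes. Without the low-depth library 7 passed, and the calls over all genes went from 877 to 5398. Leaving out any other short or long pull-down library, with the low-depth one kept, left 1 call, Gas5, and the adjusted p of the other 4 at 0.0652 to 0.352. Snhg3 had 3.13, 2.77 and 0.792 in the long pull-down libraries, the last being the low-depth library with 1 count.

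Within digestion libraries 4 of 8 were higher (Gas5 0.34 ± 0.05, Snhg6 0.64 ± 0.13, Snhg8 0.50 ± 0.14 and Zfas1 0.54 ± 0.10), where 17.9% of 15199 genes passed, 8.8% higher and 9.15% lower. Snhg5 had 1.54, 1.74 and 1.71 with short and 1.45, 1.42 and 1.52 with long fragments; the values do not overlap, but the difference of -0.19 ± 0.13 did not pass. Snhg3 was at -0.09 ± 0.14. DESeq2 kept 1 of the 4 calls, Gas5, and Snhg8 was lost without any 1 of 5 libraries (adjusted p = 0.0511 to 0.189).

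**Figure D4:**
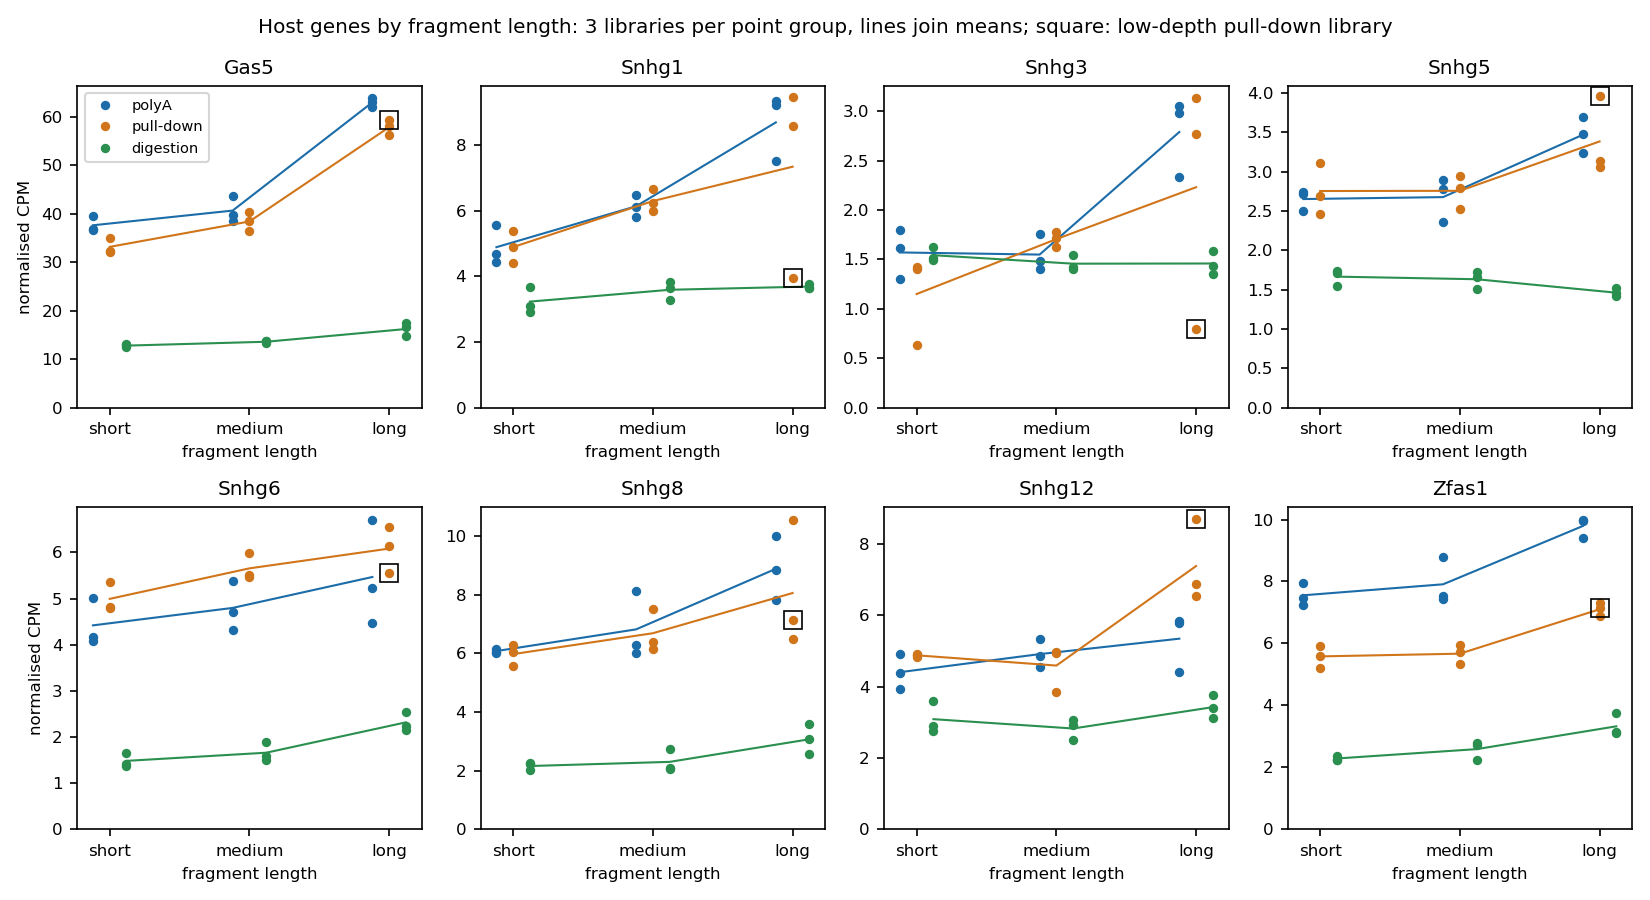
Normalised CPM (linear axes from 0) of the 8 host genes by fragment length, with 3 libraries per length and method, lines joining means, and a square around the low-depth pull-down library. Gas5 rises from 36.6 to 39.5 with short to 62.1 to 63.8 with long fragments in polyA libraries, and from a mean of 12.8 to a mean of 16.2 in digestion libraries.

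The length effect differed between methods for 4 of the 8 host genes when tested as an interaction. Digestion minus polyA was -0.36 ± 0.06 for Gas5 (adjusted p = 0.00022), -0.59 ± 0.16 for Snhg1 (0.00634), -0.88 ± 0.25 for Snhg3 (0.0108) and -0.54 ± 0.15 for Snhg5 (0.0123), where 32.6% of 15442 genes passed. Digestion minus pull-down was -0.49 ± 0.07 for Gas5, -0.71 ± 0.17 for Snhg1 and -1.41 ± 0.28 for Snhg3, where 14.4% passed. By edgeR 0 of 8 passed for pull-down minus polyA, where 3% of genes did. At an unadjusted p under 0.05 that difference was seen for 1 gene, Gas5 (0.13 ± 0.06), but not without the low-depth library (0.09 ± 0.06). DESeq2 was not run on the interaction. For Snhg8 the 2 differences from digestion were 0.01 ± 0.19 and -0.01 ± 0.23. The counts of 4, 3 and 0 were the same without the low-depth library.

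Ramp rate changed no host gene past the threshold. By edgeR 0 of 8 passed for fast against slow ramp over 27 libraries, where 5 of 15230 genes (0.0328%) did, 0.00657% higher and 0.0263% lower, and DESeq2 called 0 of 8 and 8 genes. At an unadjusted p under 0.05, 2 host genes and 663 genes stood out, Snhg6 at -0.23 ± 0.07 and Snhg12 at 0.19 ± 0.08. For Gas5 the difference was -0.06 ± 0.05 and its 95% interval -0.17 to 0.04. Snhg8 was at -0.10 ± 0.08, Zfas1 at -0.02 ± 0.05, Snhg1 at -0.02 ± 0.09, Snhg5 at 0.01 ± 0.08 and Snhg3 at 0.05 ± 0.16.

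The 2 unselected batches also gave no host gene past the threshold. EdgeR called 0 of 8 and 0 of 15422 genes (0%), with 0 and 848 at an unadjusted p under 0.05, and DESeq2 called 0 host genes and 18 genes. Gas5 was at 0.22 ± 0.13 and Snhg3 at -0.17 ± 0.65, the latter on 4 to 10 counts a library. Snhg8 was at 0.33 ± 0.29, Snhg1 at 0.29 ± 0.30, Snhg6 at 0.27 ± 0.27, Zfas1 at 0.25 ± 0.19, Snhg5 at 0.03 ± 0.34 and Snhg12 at -0.08 ± 0.27.

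Heart and liver were compared with 1 heart library against 3 unselected liver libraries of batch 1, so no test was possible. In bulk RNA of 2 tissues, fewer cells of a type and less RNA per cell cannot be told apart. On the TMM scale all 8 host genes were below the liver mean in heart, although Snhg3, Snhg5 and Snhg12 were above it by library totals, and Snhg3 (0.15, log2) and Snhg5 (0.06) without liver replicate 2. Gas5 was the 1 gene of 8 past 2-fold, where 46.1% of 11426 genes were past 2-fold, 26.4% lower and 19.7% higher. Snhg3 and Snhg5 had too few counts to enter that background. The median log2 ratio of the 8 was -0.72 and that of the genes compared -0.19.

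Gas5 had 89 counts in heart, 11.1 normalised CPM with an exact 95% Poisson interval of 8.89 to 13.6 (counting error only), and 27.6, 23.2 and 22.0 in liver. The interval lay below all liver libraries and the ratio was 0.456. It was 0.529 with totals that left out rRNA and 0.713 by library totals, so the 2-fold line was crossed on the TMM scale only. Snhg6 had 16 counts and a ratio of 0.528, with liver libraries from 1.61 to 5.21, and without liver replicate 1 both Snhg6 (-1.28, log2) and Zfas1 (-1.05) were also past 2-fold. The other intervals overlapped the liver range, from Snhg12 at 2.24 (1.33 to 3.54) against 3.05 to 3.69, to Snhg3 at 1.12 (0.512 to 2.12) against 1.01 to 2.17. The genes other than Gas5 rested on 9 to 21 counts in heart.

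**Figure D5:**
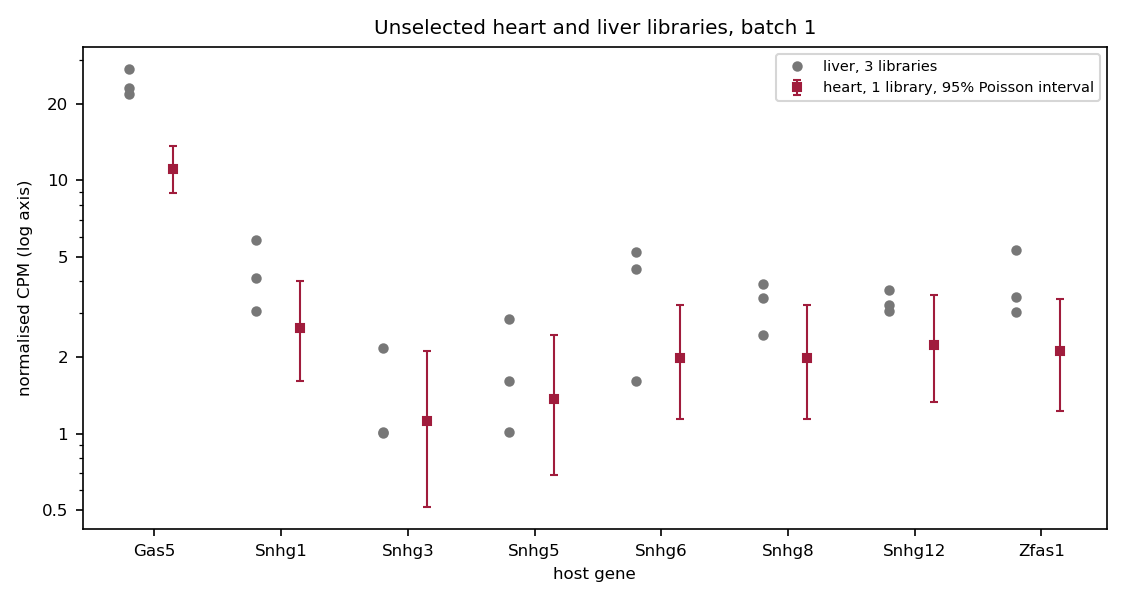
Normalised CPM (log axis) of the 8 host genes in the 3 unselected liver libraries of batch 1 (circles) and the heart library (squares, with exact 95% Poisson intervals). The Gas5 interval of 8.89 to 13.6 lies below its 3 liver libraries, and the other 7 intervals overlap theirs.

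Snora73a and Snora73b were below the liver range in heart on the TMM scale, at 7.46 against 16.1 to 17.6 and 8.95 against 22.7 to 26.9 normalised CPM. Snord22 had 3.11 against 5.08 to 7.44.

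Protein coding snoRNA host genes, many of which encode ribosomal proteins, were examined in the same contrasts. Of 42 tested on the TMM scale, 31 were higher and 2 lower in polyA than in unselected RNA (median 0.59), where 25.6% and 24.8% of all genes were. After pull-down 29 were higher and 4 lower (median 0.46), with 17.5% and 15.3% of all genes. After digestion 1 was higher and 24 lower (median -0.32), with 7.06% and 7.66% of all genes, but 42 of 42 were higher by library totals, as were 97.9% of genes. Between digestion and pull-down 35 of 42 were lower and 4 higher, where 36% and 34.7% of all genes were. By library totals these were 23 and 13, with 7.96% and 73.9% of all genes. On the TMM scale the list held Rpl21 at -2.94 ± 0.05, Rpl32 at -1.88 ± 0.04 and Rpl13a at -1.30 ± 0.03, all ribosomal protein genes. Chd8, a chromatin remodeller, was 0.45 ± 0.03 higher. Many ribosomal protein genes have near-identical processed copies, so their counts are uncertain.

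Of 14 matched further long noncoding hosts, 12 were tested. After digestion 5 were lower and 3 higher than after pull-down on the TMM scale (median -0.18), against 1 lower and 8 higher by library totals (median 0.38), beside the same shares of all genes. On the TMM scale this list held 2410006H16Rik at -1.49 ± 0.10 and Snhg14 at 1.22 ± 0.26. With long fragments 6 of the 12 were higher and 0 lower (median 0.26), and of the 42 protein coding hosts 22 were higher and 2 lower (median 0.11), where 24.8% and 19.9% of all genes were. By library totals these were 4 and 1, and 16 and 8, with 14.7% higher and 29.7% lower over all genes.

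Of 18 genes for snoRNA protein particles and their assembly, 13 were lower and 2 higher after digestion than after pull-down (median -0.54), or 5 and 6 by library totals (median 0.02), where again 36% and 34.7%, or 7.96% and 73.9% by library totals, of all genes were. Nop10, an H/ACA core protein, was at -0.96 ± 0.05 and Naf1, an H/ACA assembly factor, at 1.46 ± 0.11. Of 17 genes of nonsense-mediated decay, 5 were lower and 7 higher (median 0.04), near the shares over all genes, or 3 and 12 by library totals, with Upf1, the central helicase of the pathway, among the higher at 0.71 ± 0.06.

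The gene whose level across the 33 liver libraries was most like each host gene was found by Pearson's r of log2 normalised CPM, as a description over libraries that share 1 RNA and their method. For Gas5 it was Atp5k, a subunit of the mitochondrial ATP synthase (r = 0.977), for Zfas1 the ribosomal protein gene Rps24 (0.971) and for Snhg8 Nme2, a nucleoside diphosphate kinase (0.948). Snhg6 was most like Mphosph10 (0.928), Snhg12 most like Myl12b (0.919), Snhg1 most like Emc2 (0.915), Snhg5 most like Snx1 (0.908) and Snhg3 most like Pigp (0.802). Between the host genes r ranged from 0.238 to 0.935, with a median of 0.752.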

How the data were processed

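RNA sequencing of 34 mouse libraries was analysed from 1 table of expected counts per gene, as deposited by the authors. Per the submitters' processing notes the tools included Salmon 1.9.0, UMI-tools 1.1.1 and R 4.4.0 with the build GRCm38; their settings, and the use of strand and of molecular identifiers, are not given in the sources used here. Reads shared by overlapping or near-identical genes are assigned by estimate in such tools, so counts of those genes are less certain. Of 51368 gene identifiers, 50896 matched GENCODE M21 (GRCm38), which gave symbols, lengths and sequences.

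Expected counts were rounded. EdgeR 4.0.16 (R 4.3.3, limma 3.58.1) was used with TMM scaling, its filter on low counts, a quasi-likelihood F-test and Benjamini-Hochberg adjustment over all genes tested, with a threshold of 0.05. Method and batch comparisons came from 1 fit of the 33 liver libraries by group, ramp and length. Length and ramp came from the 27 selected libraries, length within a method from its 9, and the interaction from the 27. The SE was the log2 difference divided by the square root of F, and 95% intervals assume a normal error. The heart comparison took genes with at least 40 counts over its 4 libraries. Depth was 19873384 to 41396087 counts, with 1 library at 1126377. The alternatives were library totals, totals without rRNA-typed genes and Lars2, no filter, DESeq2 1.42.0, fits of 2 groups only, a replicate block and leaving out libraries.

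The host genes and gene lists were chosen with earlier results of these data known. The rule was to name all 8 host genes in each comparison, and where some have no value of their own they are given by counts or ranges. Of each further list (17 noncoding hosts with 14 matched, 42 coding hosts, 19 particle genes with 18 matched and 17 decay genes) the named genes were taken from those of lowest adjusted p, up to 3 a direction. No 2 libraries held identical values. The test was tried on simulated counts for digestion against pull-down and digestion against unselected RNA. Those counts had no ramp or length effect and no difference of rRNA share between groups. They therefore do not check how the fits handle these. The shares of all genes with ranges apart, the limits for Snora44 by library totals, the bins of transcript length, some fits without the low-depth library, and the list and embedded snoRNA values by library totals and by totals without rRNA were chosen after seeing the data.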

Additional observations from a re-analysis of the deposited data

Results flagged for a closer look

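For 3 of 24 sets of 9 libraries, a host gene value stood apart from the other 8, by a gap to the nearest library that was large for the range of the set (Dixon's criterion). Chance flags about 1 in 20. Snhg5 had 3.96 normalised CPM in the slow, long pull-down library, on 5 counts, with 3.13 in the next. Snhg6 had 6.71 in the slow, long polyA library, with 5.37 in the next. Snhg8 had 10.6 in the medium ramp, long pull-down library, with 7.53 in the next. These 9 libraries differ in ramp and fragment length by design, and all 3 values come from long fragments.

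The effect of long against short fragments differed between methods by an interaction test. Digestion minus polyA was -0.36 for Gas5, -0.59 for Snhg1, -0.88 for Snhg3 and -0.54 for Snhg5, all log2. Digestion minus pull-down was -0.49 for Gas5, -0.71 for Snhg1 and -1.41 for Snhg3.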

How the results depend on the processing

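Of 781 log2 differences of single host genes recomputed under other settings, 670 kept their direction and side of the threshold, 71 lost a call, 19 gained one and 21 changed sign. By library totals in place of TMM, 8 host genes were higher in polyA than in unselected RNA, 8 after pull-down and 8 after digestion, the last a change of direction, with Gas5 at 1.76, Snhg1 2.23, Snhg5 2.56, Snhg6 1.59, Snhg8 2.02, Snhg12 2.61 and Zfas1 1.98. By the same totals Snhg3 turned to 0.26 for digestion against pull-down, and for polyA against pull-down 7 passed, with Snhg1 at 0.30, Snhg6 at 0.082 and Snhg12 at 0.21 changing sign. Snhg5 turned to -0.0041 for ramp, length within pull-down gave 3 calls and heart 0. Totals without rRNA gave 3 calls for polyA and 1 for pull-down against unselected RNA, 3 for length within pull-down and 0 for heart, with Snhg1 at 0.0033 for polyA against pull-down. Without a filter, length within pull-down gave 3. DESeq2 gave 5 for length within polyA and 1 within digestion. Over all comparisons it lost 11 calls of single host genes and gained 2. With only the libraries of the 2 groups, pull-down against unselected RNA gave 1, and Snhg5 turned to -0.0014 for polyA against pull-down. Per length, the span of 21.2-fold became 7.39-fold with the union of exons.

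Leaving out 1 unselected library at a time gave 4 to 5 calls for polyA, 1 to 3 for pull-down and 3 to 4 for digestion against unselected RNA. Snhg3 then ranged from -0.11 to 0.37 for digestion against unselected RNA. No selected library was left out of those comparisons, apart from the low-depth one. Leaving out 1 short or long library gave 6 to 7 calls for length within polyA and 3 to 4 within digestion. Within pull-down it gave 1 to 7 (7 without the low-depth library, 1 without each of the other 5). Without 1 liver library, heart had 1 to 3 past 2-fold. Between the batches, where 0 passed each time, Snhg3 ranged from -0.43 to 0.27, Snhg5 from -0.26 to 0.48 and Snhg6 from -0.11 to 0.56. The cause was not tested.

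Replicate numbers were shared only by the 2 unselected batches. Their deviations correlated at -0.0009, -0.0328 and -0.0548 for the 3 same-numbered pairs, so the numbers do not pair the libraries. In a fit of these 6 libraries alone 0 of 6 host genes tested and 39 genes passed, and with a replicate block in the same 6 libraries 0 of 7 host genes tested and 82 genes, against 0 genes in the fit of 33 libraries. Depth limits the low-depth pull-down library, where Snhg3 has 1 count, and the unselected liver libraries, where it has 4 to 10, and heart.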
